A study of Mus musculus with 9 samples.

Results

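Human *CRX* (eutherian CRX) was compared with a control plasmid in mouse embryonic fibroblasts (MEFs), connective tissue cells grown out of mouse embryos, in 6 of the 9 RNA-seq libraries of the study. The members were chosen by their labels, as 3 libraries of cells that ectopically expressed V5-tagged human *CRX* and 3 libraries of control cells, and the 3 libraries with opossum *CRX* (metatherian CRX) were left aside. Genes were then followed that lay on the same side in all 3 pairs of same-numbered libraries (eutherian CRX 1 beside control 1, and so on), and pair 3 was also shown apart from pairs 1 and 2. All cells were C57Bl/6 MEFs at passage 2. Both groups had been electroporated with a plasmid that carries puromycin resistance, and both had been under puromycin for 5 days, so the control cells share the electroporation and the selection. The label of the control names the puromycin construct alone, although it too is marked as V5-tagged. A recovery of 48 hours after selection is given by the labels, and culture overnight by the methods of the study. As a model the experiment is limited to cells from a commercial stock in which CRX was made outside its own tissue, from a plasmid. Nothing says that the replicates came from separate cultures, so each p-value below measures the spread between these libraries, which may be technical. These are bulk samples, in which fewer cells of a type and less RNA per cell cannot be told apart.

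CRX, the cone-rod homeobox protein, is a homeodomain transcription factor of the Otx family. In retina and pineal gland it binds short DNA sites with the core TAATCC and, with partner proteins, switches on the opsins and other genes of photoreceptors. Fibroblasts normally lack it. The genes that divide a cell are switched on late in the cell cycle, and many of their promoters share a CCAAT box, bound by NF-Y, and a cell cycle homology region (CHR, with the core TTTGAA or TTCGAA), bound by the MuvB complexes that silence these genes in resting cells and activate them before mitosis.

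The 6 libraries held between 54145701 and 94699657 counts on genes, and replicate libraries differed by far more than counting error. Of 22068 genes listed, 10018 passed the filter on low values and were tested. Levels are given in CPM, counts scaled to the size of the library, and differences are log2 ratios of eutherian CRX to control. CPM values are not adjusted for transcript length and are compared here only within a gene. All 12 fibroblast markers passed the filter, with a summed level of 43568 to 50324 CPM in control and 19534 to 41057 CPM with eutherian CRX. *Thy1*, a surface marker of fibroblasts, had 240.2, 314 and 708 CPM in control 1, 2 and 3 and 130.1, 149.998 and 164 CPM in eutherian CRX 1, 2 and 3. Among them *Vim*, the intermediate filament gene vimentin, had 5210, 5509 and 5147 CPM in control 1, 2 and 3 and 5494, 5434 and 4444 CPM in eutherian CRX 1, 2 and 3. Markers of other cell types were low: of 19 macrophage and leukocyte markers 4 passed the filter, of 11 endothelial markers 2, of 12 epithelial markers 2 and of 14 skeletal and cardiac muscle markers 1. The summed level of the leukocyte markers was 26.4 to 62.7 CPM in control and 11.95 to 34.3 CPM with eutherian CRX, with *Ptprc* (CD45) at 0.108 to 1.66 CPM and *Cd3e* at 0 CPM in every library. That of the endothelial markers was 60.5 to 76.9 CPM in control and 43.2 to 47.5 CPM with eutherian CRX, and that of the skeletal and cardiac muscle markers 24.3 to 105 and 12.9 to 20.2 CPM. Epithelial markers summed to 8.10 to 16.6 CPM in control and 9.05 to 32.1 CPM with eutherian CRX, neural and glial markers to 217 to 227 and 252 to 260.1 CPM, and adipose and cartilage markers to 109.7 to 201 and 98.1 to 179 CPM. The part of these cells in the results was not tested. The Y-linked gene *Ddx3y* was present in all 6 libraries, at 24.6 to 48.0 CPM.

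*Crx* itself separated the groups. The mouse gene, on chromosome 7 of GRCm38 from 15865947 to 15879955, had no count in control 1, 2 or 3, and it had 7.92, 14.9 and 4.22 CPM in eutherian CRX 1, 2 and 3. Set against a floor of 3 counts in each control library, the level with eutherian CRX was higher by at least 200.3-fold. That bound, which was not tested, ranged from 135-fold to 254-fold when 1 eutherian CRX library was left out. The fitted log2 difference, which rests on 0 counts in control, was 12.4 (adjusted p = 0.064, edgeR). The counts do not separate reads of the introduced human gene from reads of the mouse gene. Eutherian CRX 3, the library that stands apart below, had the lowest level of the 3. No other member of the Otx and ETCHbox families passed the filter, and *Otx1* and *Otx2* stayed at or below 0.195 CPM in every library.

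More genes were lower than higher with eutherian CRX at an unadjusted p under 0.05, and none reached an adjusted p under 0.05 in edgeR's quasi-likelihood test with the pair as a block. The smallest adjusted p was 0.057. At an adjusted p under 0.1 there were 3 genes higher (0.0299% of those tested), namely *Crx*, *C3* and *Ptchd1*, and 87 lower (0.868%). The smallest adjusted p was 0.149 without the block (edgeR). It was 0.764 or 0.300 without control 1 or 2, and 0.700 or 0.237 without eutherian CRX 1 or 2 (edgeR). In none of these fits did a gene have an adjusted p under 0.1. At an unadjusted p under 0.05, 227 genes were higher (2.27%) and 624 lower (6.23%). All of the 624 and 226 of the 227 (2.26% of all genes) lay on the same side in all 3 pairs. Without regard to a test, 1655 genes (16.5%) were higher and 1723 (17.2%) lower in all 3 pairs, and 6640 changed sides between pairs. That order turned with upper-quartile scaling, to 1767 higher and 1632 lower. Every eutherian CRX library lay above every control library in 644 genes (6.43%) and below in 776 (7.75%). These shares are the background for the gene groups below, which were chosen with earlier results of these data known, so that their counts are a description and not a test. DESeq2 on the same counts and design called 44 genes higher and 333 lower at an adjusted p under 0.05, and limma voom 1 and 0. Without replicate 3 the edgeR counts at that threshold were 90 higher and 494 lower (eutherian CRX 3 left out) or 108 and 539 (control 3 left out), 55 and 373 with both left out, and 0 without any 1 of the other 4 libraries. Without eutherian CRX 3 and without the block there were 0 calls in either direction (smallest adjusted p 0.099, edgeR). In that fit an unadjusted p under 0.05 was reached by 302 genes that were higher and 733 that were lower. It also takes control 3 back in, which adds nothing in the blocked fit without its partner. The block and control 3 can therefore not be told apart here.

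Genes of mitosis and the kinetochore were lower with eutherian CRX in nearly the whole list. Of 70 such genes 53 passed the filter, and 50 of the 53 (94.3%, beside 6.23% of all genes) were lower at an unadjusted p under 0.05. The same number was lower in all 3 pairs, and 30 had an adjusted p under 0.1. Their median log2 difference was -1.41, and it was -1.17, -1.30 and -1.40 in pairs 1, 2 and 3, where the median of all genes was 0.0052, 0.0016 and -0.00087. The 17 members that failed the filter were all lower in all 3 pairs as well, so that 67 of the 70 listed genes were. The count of 50 was 46 to 49 with 1 library left out and 45 without the block. The 30 were less stable. No member had an adjusted p under 0.1 without the block, or without control 1 or 2 or eutherian CRX 1 or 2 (edgeR).

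The promoters of this list are shown here because they share letters that played no part in choosing the genes. RefSeq promoters of GRCm38.p6, from 250 bases before to 50 after the transcript start nearest to the gene's start, were found for 43 of the 53 genes and for 7589 of all 10018. Each motif was searched as exact letters on both strands, so that CCAAT also stands for ATTGG on the other strand and TTTGAA for its reverse complement, while TTCGAA reads alike on both. A match of CCAAT and a match of a CHR core may share a letter at their ends. CCAAT was in 29 of the 43 (67.4%, beside 38.4% of all promoters), a CHR core in 34 (79.1%, beside 12.9%), and both were in 29 (67.4%, beside 5.26%). TAATCC, or its complement on the other strand, was in 0 of the 43 and in 5.05% of all promoters. The stretches below are the 120 bases before the start of the 5 genes of the list with the smallest p among those 11 that hold both motifs in that stretch, written 5′ to 3′ on the strand of the gene, with CCAAT boxes and CHR cores of either strand in capitals. They lie at chr11:99024190-99024309 (minus strand, *Top2a*), chr19:37376262-37376381 (plus strand, *Kif11*), chr2:129297213-129297332 (minus strand, *Ckap2l*), chr3:27153879-27153998 (minus strand, *Ect2*) and chr7:127042421-127042540 (minus strand, *Kif22*).
Top2a: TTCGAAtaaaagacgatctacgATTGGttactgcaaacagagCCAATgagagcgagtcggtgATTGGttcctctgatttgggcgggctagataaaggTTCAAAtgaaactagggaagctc
Kif11: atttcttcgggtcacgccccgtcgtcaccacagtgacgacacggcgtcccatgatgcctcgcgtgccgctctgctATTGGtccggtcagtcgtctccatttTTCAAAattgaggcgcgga
Ckap2l: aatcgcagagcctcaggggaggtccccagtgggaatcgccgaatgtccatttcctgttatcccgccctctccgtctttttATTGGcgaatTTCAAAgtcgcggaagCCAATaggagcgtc
Ect2: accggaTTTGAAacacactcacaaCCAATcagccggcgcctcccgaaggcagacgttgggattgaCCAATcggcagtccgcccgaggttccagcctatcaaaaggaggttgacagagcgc
Kif22: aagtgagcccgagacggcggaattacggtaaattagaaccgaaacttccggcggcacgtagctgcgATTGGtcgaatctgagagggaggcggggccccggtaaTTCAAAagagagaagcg

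*Top2a* encodes topoisomerase II alpha, which untangles sister chromosomes, *Kif11* and *Kif22* encode mitotic motor proteins, *Ckap2l* a spindle protein and *Ect2* an activator of small GTPases at the cleavage furrow. A match of letters is a description and not a site that was shown to be bound. Within the list, the 29 genes with both motifs had a median log2 difference of -1.48, and the 14 without both -1.31. Outside the mitosis and replication lists, 364 genes had both motifs in their promoter, and 58 of them (15.9%) were lower in all 3 pairs, beside 15.6% of the 7143 genes without both. At an unadjusted p under 0.05, 26 of the 364 (7.14%) were lower, beside 4.84% of those without both. Among the 26 were further genes of cell division, picked after their values were seen: *Spag5* (log2 difference -1.57) and *Fam83d* (-1.51), whose proteins act on the spindle, and *Fbxo5* (-1.11), an inhibitor of the anaphase-promoting complex. The 382 genes with TAATCC in the promoter, *Crx* left out, had a median log2 difference of 0.02. In all 3 pairs 58 of them (15.2%) were lower and 64 higher. Of all 7589 genes with a promoter, 1241 (16.4%) were lower and 1254 higher in all 3 pairs.

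*Top2a*, on chromosome 11 from 98992947 to 99024206, had 55.4, 59.3 and 79.2 CPM in control 1, 2 and 3 and 18.5, 17.3 and 28.0 CPM in eutherian CRX 1, 2 and 3. Every eutherian CRX library lay below every control library, and the number 3 library was the highest of its group on both sides. The log2 difference was -1.62 (standard error 0.11, adjusted p = 0.057, edgeR). *Nuf2*, which joins kinetochores to microtubules and lies on chromosome 1 from 169497934 to 169531464, had 8.08, 8.51 and 12.4 CPM in control and 2.05, 2.19 and 3.03 CPM with eutherian CRX. Its pair differences of -1.97, -1.94 and -2.02 were nearly equal (log2 difference -1.99, standard error 0.15, adjusted p = 0.057, edgeR). *Ccna2*, cyclin A2, had 18.4, 18.0 and 24.5 CPM in control and 5.29, 5.67 and 8.13 CPM with eutherian CRX (log2 difference -1.68). It overlaps exons of *Exosc9* on the opposite strand. *Prc1*, which bundles the microtubules of the central spindle and overlaps *Rccd1* on the opposite strand, had 23.02, 24.3 and 43.0 CPM in control and 7.49, 8.10 and 12.5 CPM with eutherian CRX (log2 difference -1.66). The groups did not overlap in any of these 4 genes.

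The largest log2 difference of the list was that of *Mki67*, the proliferation antigen Ki-67, with 37.9, 47.8 and 66.0 CPM in control and 9.69, 8.80 and 19.8 CPM with eutherian CRX (log2 difference -2.05, standard error 0.17). Among the mitotic kinases *Plk1* had a log2 difference of -1.87, *Aurkb* of -1.62, *Bub1* of -1.62 and *Cdk1* of -0.94. *Foxm1*, which encodes an activator of these genes, differed by -0.98, and its groups overlapped, control 1 with 16.2 CPM and eutherian CRX 3 with 16.4 CPM. The 3 genes of the list without an unadjusted p under 0.05 were *Cdc25b*, *Bub3* and *Pttg1*. *Pttg1*, securin, was the member that lay higher in all 3 pairs, with 22.6, 21.4 and 18.5 CPM in control and 25.8, 24.3 and 25.2 CPM with eutherian CRX (log2 difference 0.27, adjusted p = 0.60, edgeR).

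**Figure D1:**
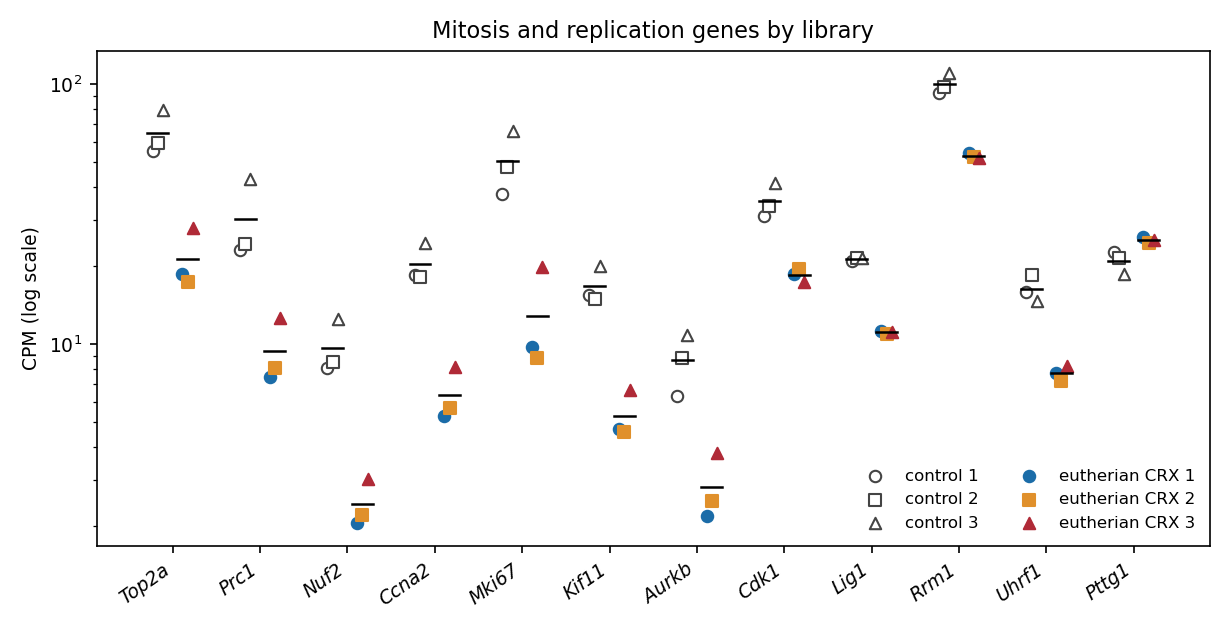
Level in CPM, on a log axis, of 8 mitosis genes, 3 replication genes and *Pttg1* in each of the 6 libraries (open symbols control, filled symbols eutherian CRX, shape gives the replicate number, bars give group means). The 3 eutherian CRX libraries lie below the 3 control libraries in every gene shown except *Pttg1*, which lies above. Eutherian CRX 3 lies close to the other 2 eutherian CRX libraries in *Lig1* and *Rrm1* and above them in *Mki67*, *Top2a* and *Prc1*.

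Genes of DNA replication and S phase were lower to a smaller degree. Of 65 listed genes 50 passed the filter, 29 (58.0%, beside 6.23%) were lower and 0 higher at an unadjusted p under 0.05, 39 were lower in all 3 pairs, and the median log2 difference was -0.39. The count of 29 depended on the libraries, with 16 without control 1 or eutherian CRX 1, 20 without control 2 or eutherian CRX 2 and 39 without control 3 or eutherian CRX 3. *Lig1*, the DNA ligase that joins Okazaki fragments, had 20.9, 21.5 and 21.5 CPM in control and 11.2, 10.9 and 11.1 CPM with eutherian CRX. Both groups were tight and far apart (log2 difference -0.94, standard error 0.11, adjusted p = 0.071, edgeR), and *Lig1* overlaps *6330408A02Rik* on the opposite strand. *Rrm1*, the large subunit of ribonucleotide reductase, had 91.8, 97.3 and 109.8 CPM in control and 54.3, 52.1 and 51.9 CPM with eutherian CRX (log2 difference -0.91). *2810417H13Rik*, the gene of the PCNA-associated factor, had 13.3, 12.4 and 13.2 CPM in control and 3.89, 4.22 and 4.50 CPM with eutherian CRX (log2 difference -1.63). *Atad2*, a chromatin ATPase of S phase, differed by -0.89. The origin helicase genes were uneven: *Mcm3* and *Mcm5* differed by -0.83 and -0.79, whereas *Mcm4* differed by -0.22 (unadjusted p = 0.19) and *Mcm7* by -0.25 (unadjusted p = 0.20).

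G1 regulators and p53 targets moved little at the median, with a log2 difference of -0.02. All 32 listed genes passed the filter, and 9 were lower and 4 higher in all 3 pairs (17.2% and 16.5% of all genes). At an unadjusted p under 0.05, 4 were lower (12.5%, beside 6.23% of all genes) and 1 higher (3.12%, beside 2.27%). The 4 lower became 7 without control 3 or eutherian CRX 3 and 2 without any 1 of the other 4 libraries or without the block. The 1 higher became 0 without any 1 of those 4 libraries or without the block. *Cdk2*, the S phase kinase, had 19.1, 19.8 and 18.1 CPM in control and 13.3, 12.7 and 14.6 CPM with eutherian CRX, without overlap (log2 difference -0.49, unadjusted p = 0.012). *Rb1*, the retinoblastoma protein that holds cells in G1, had 40.2, 34.5 and 39.8 CPM in control and 45.1, 42.8 and 52.1 CPM with eutherian CRX (log2 difference 0.29, unadjusted p = 0.036). *Cdkn1c*, the inhibitor p57, was lower, with 20.0, 25.8 and 64.6 CPM in control and 13.9, 16.6 and 22.6 CPM with eutherian CRX (log2 difference -0.89, and -0.58 without eutherian CRX 3).

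The Hox genes, which mark the position of a cell along the body and limb axes, split by cluster. Of 39 listed genes 38 had a count and 22 passed the filter. At an unadjusted p under 0.05, 11 of the 22 were lower (50%, beside 6.23% of all genes) and 6 higher (27.3%, beside 2.27%). The count of 6 higher was 2 or 3 without control 1 or 2 or eutherian CRX 1 or 2, and the counts without the block were 5 lower and 3 higher. All 9 *Hoxc* genes and 8 of 9 counted *Hoxb* genes were lower in all 3 pairs, and each of the 5 *Hoxc* and 6 *Hoxb* genes that passed the filter had an unadjusted p under 0.05. Of the 9 *Hoxa* and *Hoxd* genes of paralogue groups 9 to 13, those used in the distal limb and the hindmost trunk, 6 were higher and 0 lower in all 3 pairs, and the same 6 had an unadjusted p under 0.05. Of the 11 *Hoxa* and *Hoxd* genes of groups 1 to 8, 8 were lower and 0 higher in all 3 pairs, some by little, but 3 passed the filter and 0 of these had an unadjusted p under 0.05 in edgeR.

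*Hoxc8*, on chromosome 15 from 102990539 to 102994254, had 17.2, 24.0 and 40.0 CPM in control and 6.12, 7.62 and 11.2 CPM with eutherian CRX. The groups did not overlap, and within each group the number 3 library was the highest (log2 difference -1.66, standard error 0.13, adjusted p = 0.057, edgeR). *Hoxc6* had 14.2, 24.2 and 53.1 CPM in control and 6.92, 9.52 and 16.7 CPM with eutherian CRX, so that eutherian CRX 3 lay above control 1 while each pair differed by more than 1 on the log2 scale. *Hoxc9* and *Hoxc10* differed by -1.30 and -1.17. In the *Hoxb* cluster no gene kept the groups apart, and in the 6 genes tested eutherian CRX 3 lay above control 1. *Hoxb9* had 24.1, 36.3 and 62.3 CPM in control and 13.3, 15.2 and 46.2 CPM with eutherian CRX (log2 difference -0.85, unadjusted p = 0.0054).

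On the other side, *Hoxd11* had 20.0, 23.7 and 14.3 CPM in control and 28.1, 33.7 and 25.2 CPM with eutherian CRX, without overlap (log2 difference 0.61, unadjusted p = 0.0042, adjusted p = 0.22 in edgeR). *Hoxd10* had 23.1, 20.5 and 17.8 CPM in control and 32.5, 33.6 and 24.5 CPM with eutherian CRX (log2 difference 0.56), and *Hoxa11* differed by 0.39, both without overlap. *Hoxd13*, needed for digits, had 202, 156 and 65.1 CPM in control and 266, 270.02 and 78.7 CPM with eutherian CRX. There the number 3 libraries were the lowest of their groups, and each pair was still higher with eutherian CRX (log2 difference 0.49, unadjusted p = 0.016).

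**Figure D2:**
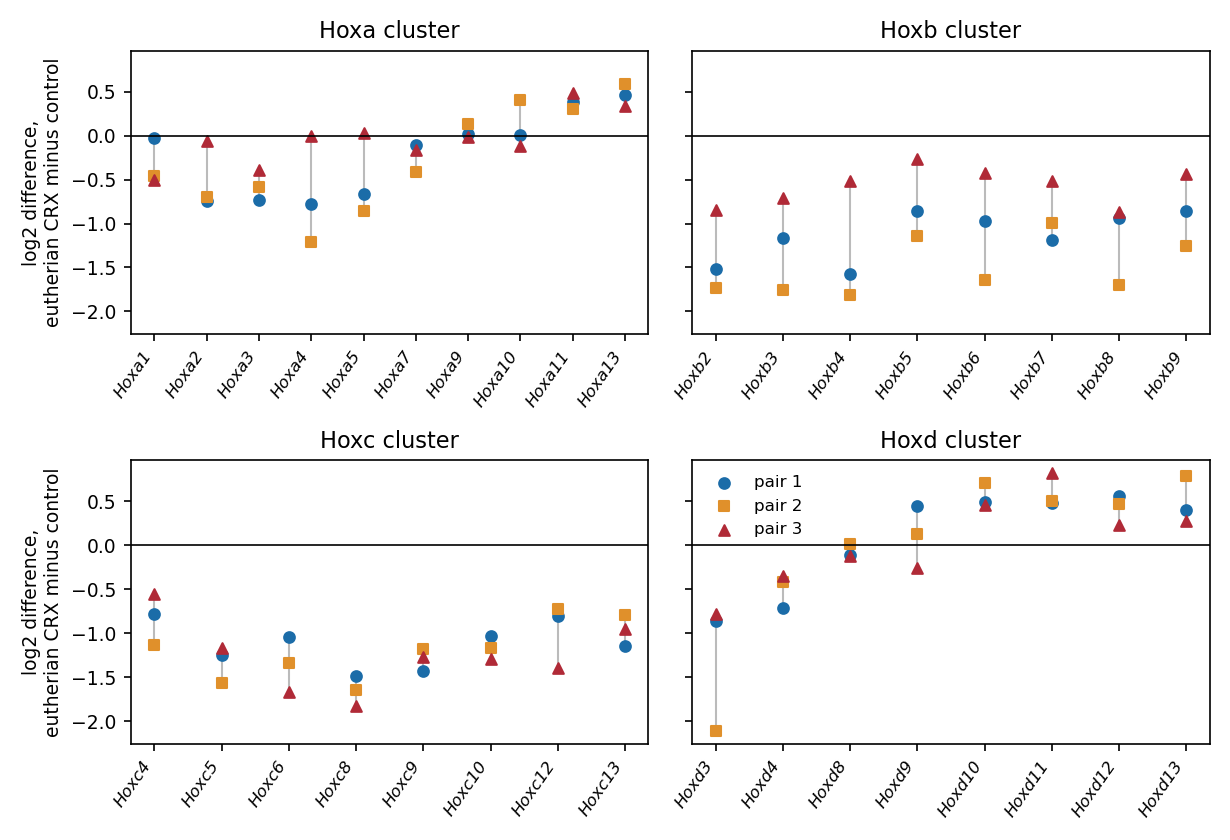
Log2 difference of eutherian CRX and control in each of the 3 pairs (y axis, the 3 symbols of a gene) for the 34 Hox genes with a mean of at least 1 CPM in either group, ordered along each cluster on the x axis. All *Hoxc* symbols and all *Hoxb* symbols lie below 0, while those of *Hoxa11*, *Hoxa13* and *Hoxd10* to *Hoxd13* lie above 0.

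Other transcription factors of mesenchyme were split as well. Of 70 listed 52 passed the filter, and the median log2 difference was -0.13. At an unadjusted p under 0.05, 14 were lower (26.9%, beside 6.23% of all genes) and 7 higher (13.5%, beside 2.27%). With 1 library left out the 14 became 9 to 18 (9 without control 1 or 2 or eutherian CRX 1 or 2) and the 7 became 4 to 11 (4 without control 1 or eutherian CRX 1, 11 without control 3), and without the block there were 6 lower and 4 higher. *En1*, a homeobox gene of ventral limb and dorsal dermis, had 7.24, 11.1 and 17.6 CPM in control and 3.02, 4.19 and 5.76 CPM with eutherian CRX, without overlap (log2 difference -1.43, standard error 0.15, adjusted p = 0.071, edgeR). *Shox2*, a homeobox gene of the proximal limb, had 30.2, 29.0 and 36.0 CPM in control and 15.1, 16.3 and 20.9 CPM with eutherian CRX (log2 difference -0.87). *Alx4*, which patterns the anterior limb bud, had 8.71, 9.07 and 21.7 CPM in control and 1.46, 2.401 and 9.76 CPM with eutherian CRX (log2 difference -1.86), and there eutherian CRX 3 lay above control 1 and 2. *Meis2*, a partner of Hox proteins, differed by -0.63. Higher at an unadjusted p under 0.05 were *Tfap2b*, *Foxf2*, *Dach1*, *Lhx2*, *Msx2*, *Lhx9* and *Lmx1b*. Of these *Dach1*, a repressor expressed in the distal limb, had the smallest p (log2 difference 0.80, unadjusted p = 0.0021) and no overlap between the groups. Of the genes that mark mesenchyme as a whole, *Prrx1* differed by -0.13 (unadjusted p = 0.52) and *Twist1* by 0.16 (unadjusted p = 0.47).

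Collagen genes were lower in all 3 pairs in 18 of 21 tested, and by very unequal amounts. At an unadjusted p under 0.05 there were 10 lower (47.6%, beside 6.23%) and 0 higher. The median log2 difference was -0.40 and -0.47 in pairs 1 and 2 and -2.04 in pair 3. Without control 3 or eutherian CRX 3 the count was 16 and the median -0.50, and without the block the count was 6. *Col1a1*, the main chain of type I collagen, had 10183, 9309 and 7822 CPM in control and 6567, 6201 and 1115 CPM with eutherian CRX. All eutherian CRX libraries were below all control libraries, and eutherian CRX 3 was far below the other 2 (log2 difference -1.31, standard error 0.52, unadjusted p = 0.054, and -0.61 without eutherian CRX 3). *Col3a1* had 9417, 6864 and 3726 CPM in control and 5176, 6212 and 300.2 CPM with eutherian CRX. In the basement membrane chain *Col4a1*, on chromosome 8 from 11198423 to 11312826, the pairs were closer, with 518, 520.5 and 1009.8 CPM in control and 314, 274 and 314 CPM with eutherian CRX (log2 difference -1.11, standard error 0.22, unadjusted p = 0.0041). Its neighbour *Col4a2* differed by -1.09, and by -0.69 without eutherian CRX 3. *Col16a1*, whose count pools exons on 2 sequences of the annotation and overlaps *Gm12963* on the opposite strand, differed by -0.55, and *Col2a1* by -0.76.

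**Figure D3:**
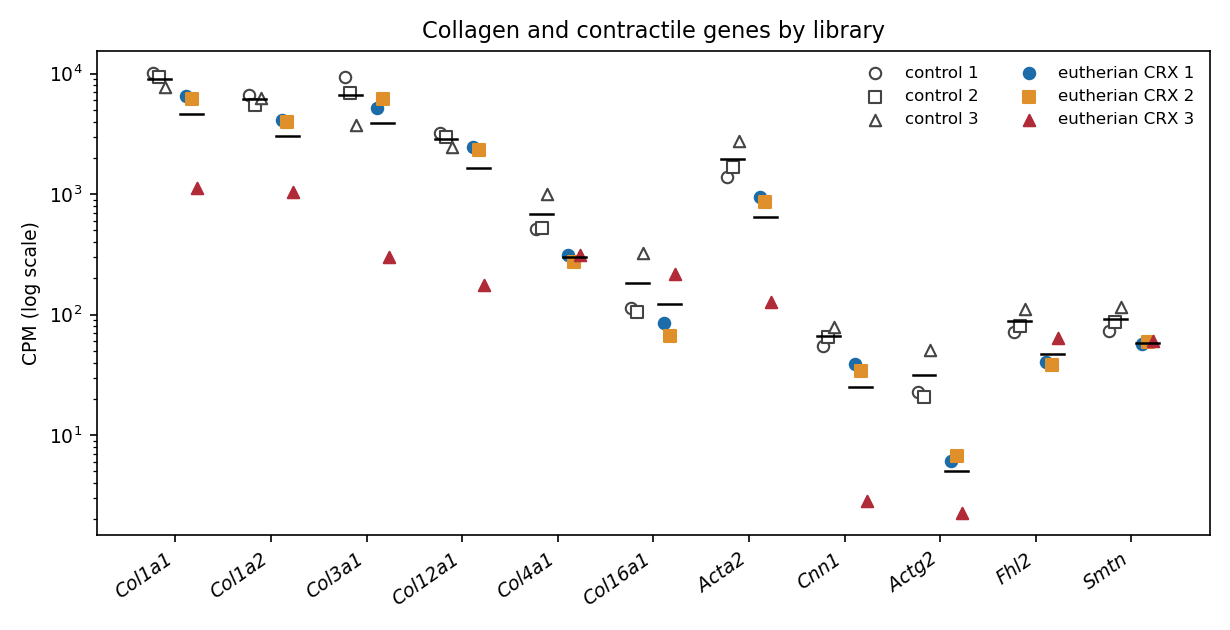
Level in CPM, on a log axis, of 6 collagen and 5 contractile genes in each of the 6 libraries (open symbols control, filled symbols eutherian CRX, shape gives the replicate number, bars give group means). Eutherian CRX 3 lies far below the other libraries in *Col1a1*, *Col3a1*, *Col12a1*, *Acta2* and *Cnn1* and close to the other 2 eutherian CRX libraries in *Col4a1* and *Smtn*.

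The other matrix genes, glycoproteins, proteoglycans and crosslinking enzymes, had 15 of 54 lower (27.8%) and 0 higher at an unadjusted p under 0.05, and pair medians of -0.27, -0.25 and -1.08. The count was 6 without control 1 or eutherian CRX 1 and 23 without control 3 or eutherian CRX 3. *Thbs2*, thrombospondin 2, had 1122, 1079 and 1259 CPM in control and 581, 706 and 433 CPM with eutherian CRX, without overlap (log2 difference -1.03, standard error 0.22, unadjusted p = 0.0050). *Vcan*, the proteoglycan versican, had 447, 514 and 523 CPM in control and 323, 372 and 359 CPM with eutherian CRX, with nearly equal pair differences of -0.47, -0.47 and -0.54. *Mfap4*, of elastic fibres, had 60.4, 61.7 and 61.0 CPM in control and 23.1, 33.1 and 7.17 CPM with eutherian CRX (log2 difference -1.77, and -1.14 without eutherian CRX 3). *Tgfbi*, an adhesion protein of the matrix, differed by -0.59. *Fn1*, fibronectin, had 15707, 18135 and 17580 CPM in control and 16921, 14367 and 10885 CPM with eutherian CRX, and the groups overlapped (unadjusted p = 0.27). The member with the highest log2 difference was *Spp1*, osteopontin, at 0.69 (unadjusted p = 0.057).

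Matrix metalloproteinases went both ways. Of 15 tested with their inhibitors, 2 were lower (13.3%, beside 6.23% of all genes) and 2 higher (13.3%, beside 2.27%) at an unadjusted p under 0.05. Without control 1 or eutherian CRX 1 these were 1 and 0, without control 2 or eutherian CRX 2 they were 4 and 2, and without the block 2 and 0. The gelatinase *Mmp2* had 960, 934 and 1065 CPM in control and 631, 712 and 545 CPM with eutherian CRX (log2 difference -0.65, unadjusted p = 0.011), and *Mmp23*, which overlaps *Mib2* on the same strand, differed by -1.12. The stromelysin *Mmp3* had 39.6, 54.7 and 89.8 CPM in control and 74.1, 75.8 and 535 CPM with eutherian CRX. The collagenase *Mmp13* had 10.7, 14.0 and 23.1 CPM in control and 23.9, 20.4 and 191 CPM with eutherian CRX. In both genes each pair was higher with eutherian CRX, most of all pair 3 (log2 differences 1.30 and 1.57, unadjusted p = 0.030 and 0.029). Without eutherian CRX 3 the log2 difference was 0.85 for *Mmp13*, 0.68 for *Mmp3* and -0.58 for *Mmp23*.

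Genes of smooth muscle and contraction, which activated fibroblasts express, were lower in all 3 pairs in 18 of 27 tested and higher in 0. At an unadjusted p under 0.05, 10 were lower (37%) and 0 higher, and the pair medians were -0.29, -0.56 and -0.94. The count was 16 without control 3 or eutherian CRX 3. *Fhl2*, a LIM protein of focal adhesions, had 71.2, 81.2 and 111.0 CPM in control and 40.4, 38.0 and 64.1 CPM with eutherian CRX, without overlap and with pair 3 no larger than the others (log2 difference -0.90, standard error 0.11, adjusted p = 0.071, edgeR). *Actg2*, smooth muscle gamma actin, had 22.6, 20.6 and 50.6 CPM in control and 6.11, 6.75 and 2.27 CPM with eutherian CRX (log2 difference -2.59, standard error 0.63). *Acta2*, the smooth muscle alpha actin of myofibroblasts, had 1399.7, 1693 and 2773 CPM in control and 943, 859 and 127 CPM with eutherian CRX, with the lowest level in eutherian CRX 3 (unadjusted p = 0.086). *Smtn*, smoothelin, differed by -0.63, the integrin *Itga8* by -1.44, and the transcription factor *Srf*, which drives many of these genes, by -0.49 (unadjusted p = 0.015).

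Among 36 tested targets and components of the TGF-beta and Hippo pathways, 8 were lower (22.2%) and 1 higher at an unadjusted p under 0.05. The count of 8 was 3 without control 1 or 2 or eutherian CRX 1 or 2, and 14 without control 3 or eutherian CRX 3, and without the block it was 3. *Ctgf*, a matricellular target of both pathways on chromosome 10 from 24595442 to 24598683, had 1285, 1509 and 1302 CPM in control and 621, 529.9 and 747 CPM with eutherian CRX, without overlap (log2 difference -1.12, standard error 0.19, adjusted p = 0.14, edgeR). *Wisp1*, of the same protein family, had 197, 188 and 258 CPM in control and 98.1, 98.3 and 91.7 CPM with eutherian CRX (log2 difference -1.14, standard error 0.15, adjusted p = 0.077, edgeR). Also of that family, *Cyr61* differed by -0.51, *Nov* by 0.13 (unadjusted p = 0.50), and *Wisp2*, the lowest of the list, by -1.85 (unadjusted p = 0.16), with pair differences of -0.70, -0.47 and -5.29. *Bambi*, a decoy receptor that dampens TGF-beta signals, was the member that was higher, with 19.6, 17.8 and 21.0 CPM in control and 28.8, 29.9 and 24.7 CPM with eutherian CRX (log2 difference 0.51, unadjusted p = 0.015). Without control 1 or eutherian CRX 1 it no longer had an unadjusted p under 0.05, and 0 members were higher.

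Immediate early genes and the feedback inhibitors of ERK signalling, which respond to growth factors, had 8 of 36 tested lower (22.2%) and 0 higher at an unadjusted p under 0.05. Their pair medians were -0.26, -0.86 and 0.40, so that the list as a whole lay lower in pairs 1 and 2 and higher in pair 3. Without control 3 or eutherian CRX 3 the count was 25, and without control 2 or eutherian CRX 2 it was 5 and the median turned from -0.15 to 0.05. Without the block the count was 5 as well, and 2 were higher without control 2 or eutherian CRX 2. *Spry1*, an inhibitor of receptor tyrosine kinase signalling, was lower in every pair, with 21.9, 28.5 and 47.9 CPM in control and 7.64, 8.22 and 10.2 CPM with eutherian CRX (log2 difference -1.85, standard error 0.17, adjusted p = 0.064, edgeR). *Fos* had 17.2, 27.5 and 15.6 CPM in control and 10.9, 11.3 and 9.46 CPM with eutherian CRX, and *Dusp1*, an ERK pathway phosphatase, 40.1, 61.8 and 40.1 CPM and 32.4, 26.1 and 16.2 CPM. Neither overlapped between the groups (log2 differences -0.89 and -0.95, unadjusted p = 0.0034 and 0.0089). *Gadd45b*, a stress response gene, differed by -0.45.

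Genes of the endoplasmic reticulum and of the ATF4 response to amino acid shortage had 8 of 32 tested lower (25.0%) and 0 higher at an unadjusted p under 0.05, with 17 lower and 0 higher in all 3 pairs. Without control 1 or eutherian CRX 1 the count was 2. The 8 were *Slc7a5*, *Chac1*, *Asns*, *Shmt2*, *Trib3*, *Atf4* (log2 difference -0.33, unadjusted p = 0.024), *Atf5* and *Ppp1r15a*. *Slc7a5*, an amino acid transporter that overlaps *LOC105246825* on the same strand, had 53.4, 49.8 and 53.7 CPM in control and 28.2, 29.96 and 35.3 CPM with eutherian CRX (log2 difference -0.75, standard error 0.11, adjusted p = 0.11, edgeR). *Chac1*, which degrades glutathione, had 15.5, 14.8 and 10.9 CPM in control and 8.91, 8.49 and 5.42 CPM with eutherian CRX (log2 difference -0.87). *Asns*, asparagine synthetase, differed by -0.45 and *Shmt2*, which overlaps *Ndufa4l2* on the opposite strand, by -0.38.

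Subunits of oxidative phosphorylation lay slightly higher with eutherian CRX. Of 46 tested, 31 (beside 16.5% of all genes) were higher and 0 lower in all 3 pairs, and the pair medians of 0.13, 0.14 and 0.16 were small and close. At an unadjusted p under 0.05 there were 4 higher (8.7%, beside 2.27% of all genes) and 0 lower. The count of 4 was 4 without the block, 0 without control 1 or 2 or eutherian CRX 1 or 2, and 2 without control 3 or eutherian CRX 3. *Ndufb9*, a subunit of complex I, had 99.0, 104 and 86.5 CPM in control and 117, 127 and 111 CPM with eutherian CRX, without overlap (log2 difference 0.29, standard error 0.09, unadjusted p = 0.019). *Ndufb8*, *Cox7a2* and *Atp5o* differed by 0.30, 0.25 and 0.24, and *Ndufb8* by 0.19 without eutherian CRX 3. Cytosolic ribosomal proteins had 0 of 74 at that threshold in either direction and a median log2 difference of 0.03, with *Rps3* at 0.08 and *Rpl4* at -0.05. Without control 3 or eutherian CRX 3, 5 were lower, and without control 1 or eutherian CRX 1, 2 were higher.

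Most photoreceptor genes that CRX controls in retina did not pass the filter. Of 45 listed 43 were in the libraries with a count and 5 passed the filter, *Gnb1*, *Rom1*, *Unc119*, *Mef2c* and *Mef2d*, which other tissues express too, and 0 of the 5 had an unadjusted p under 0.05 in edgeR (1 was higher without control 3 or eutherian CRX 3). *Sag*, rod arrestin, had 0.039, 0.088 and 0.275 CPM in control and 0.177, 0.240 and 0.364 CPM with eutherian CRX, higher in each pair at a level of few reads. Of the 38 counted genes that failed the filter, 5 were higher and 6 lower in all 3 pairs. *Gnb1*, a widely expressed G protein subunit, had 542, 543 and 542 CPM in control and 564, 572 and 655 CPM with eutherian CRX (log2 difference 0.14, adjusted p = 0.77, edgeR).

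TAATCC was held within 120 bases before the start by 11 genes with an unadjusted p under 0.05 that lay on the same side in all 3 pairs. The share of all promoters with TAATCC in that stretch was not counted. Over the whole promoter window, 16 of the 382 genes with TAATCC, *Crx* left out (4.19%), were lower in all 3 pairs at that threshold, beside 5.72% of all genes with a promoter. Seen from the other side, TAATCC was in 16 of 434 promoters of these lower genes (3.69%). It was in 6 of 167 promoters of genes that were higher in all 3 pairs at that threshold (3.59%), beside 5.05% of all promoters. The 3 with the smallest p are printed because they hold the core that CRX is known to bind beside a difference in these libraries. They were picked after their values were seen, with the core or its complement in capitals, and lie at chr7:19699189-19699308 (minus strand, *Apoe*), chr5:100572206-100572325 (minus strand, *Plac8*) and chr8:114205520-114205639 (plus strand, *Vat1l*).
Apoe: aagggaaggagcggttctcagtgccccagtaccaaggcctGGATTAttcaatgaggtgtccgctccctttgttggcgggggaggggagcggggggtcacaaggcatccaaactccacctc
Plac8: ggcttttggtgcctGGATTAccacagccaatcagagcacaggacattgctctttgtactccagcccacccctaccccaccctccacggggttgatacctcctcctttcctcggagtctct
Vat1l: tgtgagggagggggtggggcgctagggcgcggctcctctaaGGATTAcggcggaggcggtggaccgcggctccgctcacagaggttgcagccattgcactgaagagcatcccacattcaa

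*Apoe*, apolipoprotein E, on chromosome 7 from 19696244 to 19699166, had 16.3, 16.2 and 30.2 CPM in control and 7.30, 8.37 and 10.2 CPM with eutherian CRX, without overlap (log2 difference -1.23, standard error 0.16, adjusted p = 0.083, edgeR). *Plac8* had 1.46, 2.65 and 12.7 CPM in control and 0.732, 0.840 and 3.75 CPM with eutherian CRX (log2 difference -1.50). *Vat1l* had 6.60, 6.10 and 12.8 CPM in control and 3.38, 2.73 and 3.80 CPM with eutherian CRX (log2 difference -1.29). All 3 were lower with eutherian CRX, where 624 of all genes were lower and 227 higher at an unadjusted p under 0.05. *Apoe* belongs to the list of cholesterol synthesis and lipid transport. Of its 32 tested genes 3 were lower (9.38%, beside 6.23% of all genes) and 0 higher at an unadjusted p under 0.05, *Apod* (-1.11) among them. The pair medians of that list were 0.07, -0.13 and -0.84.

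Of 37 tested cytokine, chemokine and other inflammatory genes 10 were lower and 5 higher in all 3 pairs, beside 17.2% and 16.5% of all genes. At an unadjusted p under 0.05, 5 were lower (13.5%, beside 6.23% of all genes) and 2 higher (5.41%, beside 2.27%). The 5 became 9 without control 2 or eutherian CRX 2 and 10 or 11 without eutherian CRX 3 or control 3, the 2 became 4 without either of the latter and 1 without control 1 or eutherian CRX 1, and without the block there were 3 lower and 0 higher. *Il1rn*, the interleukin 1 receptor antagonist, had 328, 288 and 511 CPM in control and 105, 130.1 and 99.6 CPM with eutherian CRX (log2 difference -1.71, standard error 0.25, adjusted p = 0.11, edgeR). *Socs3*, which blocks cytokine signals, had 70.7, 78.1 and 44.5 CPM in control and 39.4, 43.5 and 27.9 CPM with eutherian CRX (log2 difference -0.79). *Il6* was low in all libraries, with 2.34 to 4.72 CPM in control and 1.17 to 1.86 CPM with eutherian CRX. The complement gene *C3* was higher in each pair, with 1.80, 3.07 and 9.27 CPM in control and 4.44, 6.33 and 20.5 CPM with eutherian CRX (log2 difference 1.16, standard error 0.15, adjusted p = 0.077, edgeR). Across pairs its log2 difference was 1.29, 1.04 and 1.14, although the groups overlapped.

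Of 29 tested interferon and antigen presentation genes, 1 was lower (3.45%, beside 6.23% of all genes) and 2 higher (6.9%, beside 2.27%) at an unadjusted p under 0.05. The pair medians were 0.24, 0.29 and -0.69. Without control 3 or eutherian CRX 3, 15 or 16 were higher and 2 lower, without any 1 of the other 4 libraries 0 were higher, and without control 3 or eutherian CRX 3 the median turned from -0.14 to 0.29 or 0.28. *Isg15*, an interferon-induced ubiquitin-like protein, had 10.8, 10.4 and 61.0 CPM in control and 12.7, 10.3 and 12.7 CPM with eutherian CRX, so that control 3 and not eutherian CRX 3 stood apart in this gene. *H2-D1*, a class I antigen presentation gene whose count pools exons on 4 sequences of the annotation, had 155, 154 and 192 CPM in control and 217, 212 and 221 CPM with eutherian CRX (log2 difference 0.38, unadjusted p = 0.019). *Irgm1* and *Igtp*, whose counts each pool exons on 2 sequences, differed by -0.38 and 0.42. Lysosome and melanosome genes had 1 lower, *Ctsk* (-0.49), and 1 higher, *Gpnmb* (0.52), of 37 tested (2.7% each). Glycolysis and hypoxia genes had 2 lower (6.9%), *Ero1l* and *Ddit4*, and 1 higher (3.45%), *Egln3*, of 29. Over all genes these shares were 6.23% lower and 2.27% higher. Without the block the lysosome counts were 0 lower and 0 higher and the glycolysis counts 0 and 1. The glycolysis counts were 4 and 4 without control 3 or eutherian CRX 3, 0 and 0 without control 1 or eutherian CRX 1, and 2 and 0 without control 2 or eutherian CRX 2. The lysosome counts were 1 and 2, 1 and 0, and 2 and 1 in the same order.

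**Figure D4:**
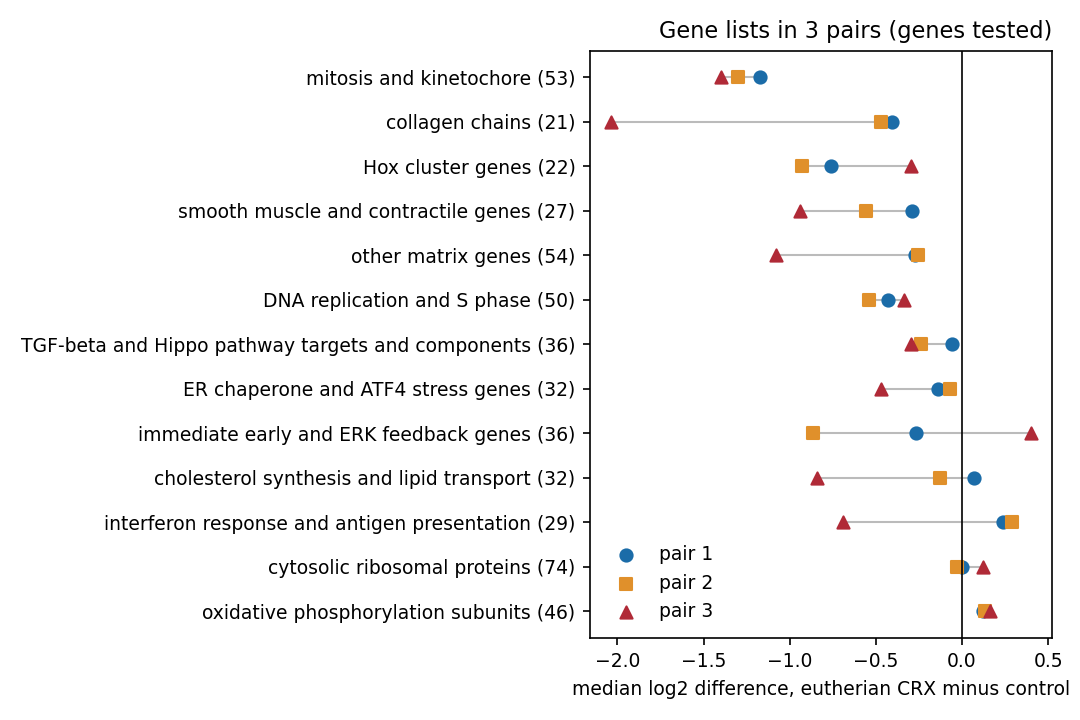
Median log2 difference of eutherian CRX and control (x axis) over the tested genes of 13 lists (y axis, number of genes in brackets) in pair 1, pair 2 and pair 3. The 3 pairs lie close together for mitosis (-1.17, -1.30 and -1.40) and oxidative phosphorylation (0.13, 0.14 and 0.16), and pair 3 lies apart for collagen chains (-2.04) and on the other side of 0 for the immediate early (0.40) and interferon (-0.69) lists.

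Pair 3 differed from the other pairs over all genes. The SD over genes of the log2 difference was 0.300 in pair 1, 0.358 in pair 2 and 0.677 in pair 3. More than 1 below control on the log2 scale were 158 genes in pair 1, 220.0 in pair 2 and 716 in pair 3, and more than 1 above were 17, 14 and 186. Eutherian CRX 1 and 2 were close to each other, with an SD of 0.147, and eutherian CRX 3 was far from both, with 0.842 and 0.877. Control 3 stood apart from control 1 and 2 as well, with 0.545 and 0.438, where control 1 and 2 differed by 0.240. In 579 genes pair 3 was more than 1 below the mean of pairs 1 and 2, and in 238 more than 1 above it.

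Of the 8 genes named for a lower pair 3, *Ogn*, the matrix proteoglycan osteoglycin, had 1177, 629.7 and 388 CPM in control and 631, 851 and 9.09 CPM with eutherian CRX. *Aspn*, asporin, a proteoglycan that binds collagen and overlaps *Cenpp* on the opposite strand, had 335, 197 and 301 CPM in control and 153, 226 and 5.74 CPM with eutherian CRX. *Abi3bp*, which binds matrix, had 365, 279.5 and 63.4 CPM in control and 219, 216 and 0.364 CPM with eutherian CRX. In each of these 3 genes eutherian CRX 3 was at a small fraction of every other library, control 3 included. *Wisp2* and *Arsi* showed the same order, with 5.58 and 1.32 CPM in eutherian CRX 3 and at least 220 and 38.1 CPM elsewhere. *Cxcl15* (5.87 CPM in control 3 and 0.121 CPM in eutherian CRX 3, exons on 2 sequences pooled) was low in both number 3 libraries, and *Thbs4* was at 1.02 CPM in eutherian CRX 3 and at 9.72 to 18.7 CPM elsewhere.

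Genes that were higher in pair 3 than in pairs 1 and 2 were high in control 3 in several cases too. *Itga2*, the integrin chain that binds collagen, had 2.28, 3.51 and 10.5 CPM in control and 2.63, 2.36 and 97.4 CPM with eutherian CRX. *Megf10*, an engulfment receptor, had 6.07, 14.4 and 28.0 CPM in control and 5.998, 4.68 and 116.9 CPM with eutherian CRX. *Cck* had 0.840, 1.90 and 19.1 CPM in control and 0.253, 0.510 and 43.5 CPM with eutherian CRX. In these 3 genes the number 3 library was the highest of each group. The cell cycle repressor *E2f8*, a member of the replication list, went against that list in pair 3, with 6.11, 9.71 and 17.5 CPM in control and 2.83, 2.58 and 42.3 CPM with eutherian CRX. *Car8*, *Il11* (which overlaps *Tmem190* on the opposite strand), *Egr3* and *Olr1* were likewise highest or next to highest in eutherian CRX 3.

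**Figure D5:**
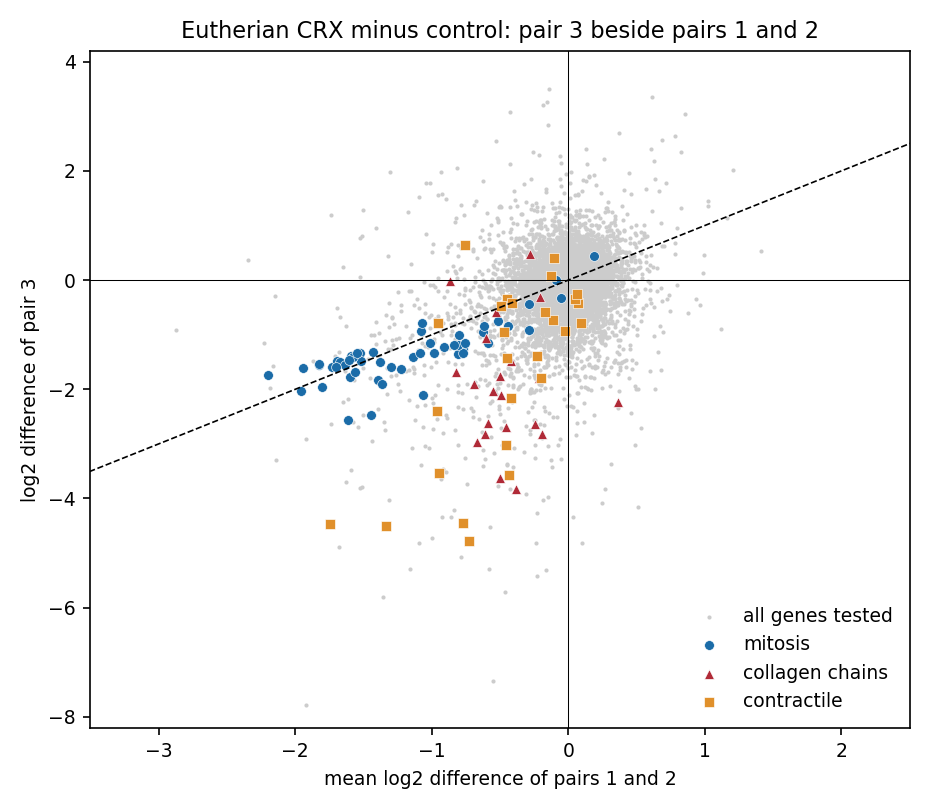
Log2 difference of eutherian CRX and control in pair 3 (y axis) beside the mean of pairs 1 and 2 (x axis) for all tested genes except *Crx*, with a dashed line of equality. Genes of the mitosis list (circles) follow the line, while most collagen chains (triangles) and many contractile genes (squares) lie below it, that is, lower in pair 3.

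Among genes that were on the same side in all 3 pairs with an unadjusted p under 0.05 and at least 2 CPM in either group, the lowest log2 difference was that of *Egfl6*, which encodes a secreted matrix protein, at -2.98, with 36.0, 30.2 and 12.02 CPM in control and 7.13, 10.6 and 0.027 CPM with eutherian CRX. Eutherian CRX 3 had 2 counts of it, and the log2 difference was -1.92 without that library. *Ptn*, the growth factor pleiotrophin, had 574, 581 and 1160 CPM in control and 147, 238 and 89.5 CPM with eutherian CRX (log2 difference -2.30, standard error 0.50). Its receptor phosphatase *Ptprz1* had 16.1, 17.1 and 44.2 CPM in control and 3.75, 3.75 and 4.48 CPM with eutherian CRX (log2 difference -2.53, standard error 0.29, adjusted p = 0.071, edgeR). Ligand and receptor were both lower, each without overlap between the groups. *Igfbp2*, which binds insulin-like growth factors, had 436, 403 and 62.3 CPM in control and 135, 160.3 and 4.49 CPM with eutherian CRX (log2 difference -2.22), and the groups overlapped. *C1qtnf3* (-2.20), *Clca3a1* (-2.25), *Lmod1*, of smooth muscle (-2.29), the thromboxane receptor gene *Tbxa2r* (-2.69) and the predicted gene *LOC105247254* (-2.22) completed this group, together with *Actg2*. Without eutherian CRX 3 the log2 difference was -1.34 for *Lmod1*, -1.70 for *Tbxa2r*, -1.75 for *Actg2*, -1.63 for *Ptn*, -1.51 for *Igfbp2*, -1.60 for *C1qtnf3* and -2.91 for *LOC105247254*.

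The highest after *Crx* were smaller, and most had their largest difference in pair 3. *Bmp2*, a bone morphogenetic protein, had 2.48, 3.86 and 12.6 CPM in control and 5.43, 5.27 and 78.6 CPM with eutherian CRX (log2 difference 1.42, unadjusted p = 0.025). *Gchfr*, a regulator of biopterin synthesis, had 0.859, 1.18 and 3.23 CPM in control and 2.73, 2.04 and 13.2 CPM with eutherian CRX (log2 difference 1.51). *Akr1c18*, which inactivates progesterone, had 6.56, 9.54 and 3.25 CPM in control and 15.7, 12.5 and 16.7 CPM with eutherian CRX (log2 difference 1.32), and it was the member of this group besides *Crx* whose groups did not overlap. *1700012B09Rik* (2.13), *Tmem179* (1.22) and the substance P receptor *Tacr1* (1.17) had their highest level in eutherian CRX 3, as did *Mmp3*, *Mmp13* and *C3*. *1700012B09Rik* had 0.0781, 0.155 and 0.535 CPM in control and 0.189, 0.180 and 5.73 CPM with eutherian CRX. It thus reached a group mean of 2 CPM only through eutherian CRX 3 and was at few reads elsewhere. Without eutherian CRX 3 the log2 difference was 0.61 for *1700012B09Rik*, 0.77 for *Bmp2*, 0.81 for *Akr1c18* and 0.59 for *Tmem179*. Without eutherian CRX 3 and without the block, *1700012B09Rik*, *Bmp2* and *Tacr1* lay on the other side of 0, at -0.49, -0.25 and -0.22.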

How the data were processed

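Gene expression came from 6 RNA-seq libraries, 3 control and 3 eutherian CRX. Raw counts per gene, without normalization, were deposited by the authors, who used STAR for alignment to mm10 (GRCm38) and featureCounts for counting. Which annotation release and which strand setting they used is not given in the sources used here. Depth was 54145701 to 94699657 counts per library.

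Genes with edgeR's filterByExpr and a mean FPKM above 2 in either group, computed from counts and merged exon length, were kept. edgeR 4.0.16 in R 4.3.3 gave TMM scaling (factors 0.957 to 1.10) and the quasi-likelihood test with the replicate number as a block, with 2 residual degrees of freedom and Benjamini-Hochberg adjustment over 10018 genes. Log2 CPM of single pairs used a prior count of 2. The block follows the study, which prepared samples in pairs but does not state which libraries form a pair, so the replicate number was used. Deviations from the group mean correlated over genes at 0.698, 0.274 and 0.687 in the same-numbered libraries, and at 0.721 for control 1 with eutherian CRX 2 and 0.299 for control 2 with eutherian CRX 1, so they do not favour this pairing of numbers 1 and 2 over the crossed one. Chi-square per degree of freedom between replicates was 31.0 to 1182, which shows only that no 2 libraries agreed within counting noise.

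The members and the 29 gene lists were chosen with earlier results of these data known, so no list was tested. Named genes were *Crx*, the 10 highest and lowest differences among genes on the same side in all pairs with an unadjusted p under 0.05 and 2 CPM in either group, 4 members of each list by p (for a list with none under 0.05, the 2 with the highest CPM), 8 genes in each direction for pair 3, and markers. Other genes were named for their role after their values were seen. Promoters of GRCm38.p6 came from RefSeq, within 10000 bases of the start in the count table. The test was run on simulated counts first. Alternatives were no block, RLE and upper-quartile scaling, DESeq2 1.42.0, limma 3.58.1 voom, 3 filters, all 9 libraries, another threshold and libraries left out. Counts of list members with libraries left out were added after seeing the data.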

Additional observations from a re-analysis of the deposited data

How the results depend on the processing

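Of the 105 named genes, the 83 with an unadjusted p under 0.05 lay on the other side of 0 in 3 of 1727 refits under the alternatives. Most of the 83 were chosen for lying on the same side in all 3 pairs. That choice largely fixed the small number, which is therefore no measure of how stable the results are. All 105 together did so in 60 of 2184, in 16 genes, mostly those named because pair 3 stood apart. The list medians had the same sign in every alternative for 16 of 28 lists, mitosis, replication, collagen, matrix, contractile and oxidative phosphorylation genes among them. In edgeR no gene passed an adjusted p of 0.05 without the replicate block, where 153 higher and 436 lower had an unadjusted p under 0.05, with RLE scaling (224 and 630) or with upper-quartile scaling (254 and 599). In edgeR without the block, all 9 libraries gave 0 calls, as did the 6 libraries without eutherian CRX 3. The latter fit holds control 3, which adds nothing in the blocked fit, so it does not show the part of the pairing alone. DESeq2 called 44 higher and 333 lower with the block and 12 and 175 without it, limma voom 1 higher, a filter of any count 3 and 90, all 9 libraries with the block 2 and 59, and a threshold of 0.1 gave 3 and 87. At an unadjusted p under 0.05, filterByExpr alone gave 355 and 1033 genes, any count 382 and 1121, and a mean FPKM above 5 gave 414 lower, over 14310, 18012 and 7910 genes tested. With 1 library or 1 pair left out, 0 to 108 genes were called higher and 0 to 539 lower, with calls only where control 3, eutherian CRX 3 or both were left out, and 63 to 440 and 386 to 989 had an unadjusted p under 0.05. With 1 pair left out, 2578 to 3006 genes were higher in both remaining pairs and 2557 to 2893 lower, since fewer pairs have to share a side. With filterByExpr alone 2593 were lower in all 3 pairs.

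Several medians turned. That of the G1 and p53 list was 0.0094 without the block, 0.0080 in DESeq2 without it and 0.0049 in all 9 libraries without it, and that of the neural markers 0.25, 0.25 and 0.17. The metalloproteinase median was 0.016 with filterByExpr alone and 0.0030 without eutherian CRX 3 and the block. The photoreceptor median was -0.011 with any count, and with 1 library or pair left out it ranged from -0.032 to 0.10. The Hox median was 0.23 with a mean FPKM above 5, a filter that keeps fewer genes. The medians of the interferon, immediate early, glycolysis, lysosome and epithelial lists also turned when libraries were left out, and those of the ribosomal (-0.030) and adipose or cartilage (0.0035) lists without both eutherian CRX 3 and the block. Without eutherian CRX 3 and the block, *1700012B09Rik* was at -0.49, *Bmp2* at -0.25 and *Tacr1* at -0.22. Other causes were not tested. In the blocked fit a library without its partner adds nothing, so leaving out either library of a pair gave nearly the same values.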
